A study of Mus musculus with 2 samples.

Results

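The cells described here came from adult mice and are labelled conventional CD4 T cells. At the moment of capture they carried transcripts of the transcription factor Egr2 together with those of several effector cytokines or chemokines. A cell was a member when it had no Foxp3 UMI, at least 1 Egr2 UMI, and UMIs of at least 2 of the 7 genes Il2, Ifng, Tnf, Csf2, Xcl1, Ccl4 and Ccl1. The rule found 156 cells, 82 in library 1 and 74 in library 2, among 12789 cells with at least 500 detected genes, at least 1000 gene UMIs, under 10% mitochondrial UMIs and a UMI of the T cell receptor genes Trbc1 or Trbc2. A UMI is a molecular tag that counts 1 captured transcript, so a zero does not show that a gene was silent. These cells are called Egr2 cytokine cells below.

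The cells came from 8-week-old male mice of the C57BL/6J strain that were wild type (WT), from brown (BAT), subcutaneous (SAT) and visceral (VAT) fat and from spleen (SPLN). Live TCRb+CD3+CD4+ cells were sorted, tagged by sample with hashtag antibodies and run as 1 droplet library in each of 2 experiments, with 8 hashed samples a library and so 4 hashed samples a tissue. The labels list no treatment and no restimulation. Fat was digested with collagenase II and spleen was dissociated by mechanical means only, so tissue and dissociation cannot be told apart in any comparison of fat with spleen. The design text calls the hashed duplicates biological but does not say that each was 1 animal. Gene p-values on counts summed per library measure the spread between the 2 libraries, not between hashed samples. Those on sums per hashed sample, and those of tissue shares, measure the spread between these samples.

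When a T cell receptor meets its antigen, calcium, MAP kinase and protein kinase C signals activate the NFAT, AP-1 and NF-kB transcription factors. Egr2 and its relatives Egr1 and Egr3 are transcribed within the first wave, with the orphan nuclear receptors of the Nr4a family, and cytokine genes follow in cells that are poised to transcribe them. Egr2 is known both for supporting the response of T cells to antigen and for restraining it, and it is also expressed in anergic T cells and in NKT cells.

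Libraries 1 and 2 held 29153747 and 43879975 gene UMIs, with medians of 6121 and 4316.5 UMIs in the 3879 and 8910 T cells that passed the filter. Hashtags placed 3360 and 6070 of these cells in a single sample, and 5.10% and 10.95% carried hashtags of more than 1. The hashtag of SAT replicate 1 was weak, and under stricter calls 5 of its 461 cells remained, with 81 of 525 for BAT replicate 4. The libraries shared 8 cell barcodes, none of them of a member.

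Every member was chosen by its cytokine transcripts, so the next values describe the choice and carry no test. Ifng, which encodes the macrophage-activating cytokine interferon gamma, and Tnf were the usual pair. Ifng was detected in 85.4% of members in library 1 and 82.4% in library 2, and Tnf in 89.0% and 82.4%. Both were detected in 112 of the 156 members, and 3 members had neither. Il2, the T cell growth factor, was found in 40.2% and 43.2% of members at a median of 1 UMI per positive cell. Xcl1, a chemokine that attracts cross-presenting dendritic cells, was found in 37.8% and 58.1%. The chemokine Ccl4 was found in 23.2% and 21.6%, the myeloid growth factor Csf2 in 20.7% and 13.5%, and the CCR8 ligand Ccl1 in 10.98% and 10.81%. Most members therefore carried Ifng or Tnf, while each of Csf2, Ccl4 and Ccl1 was detected in a minority.

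**Figure D1:**
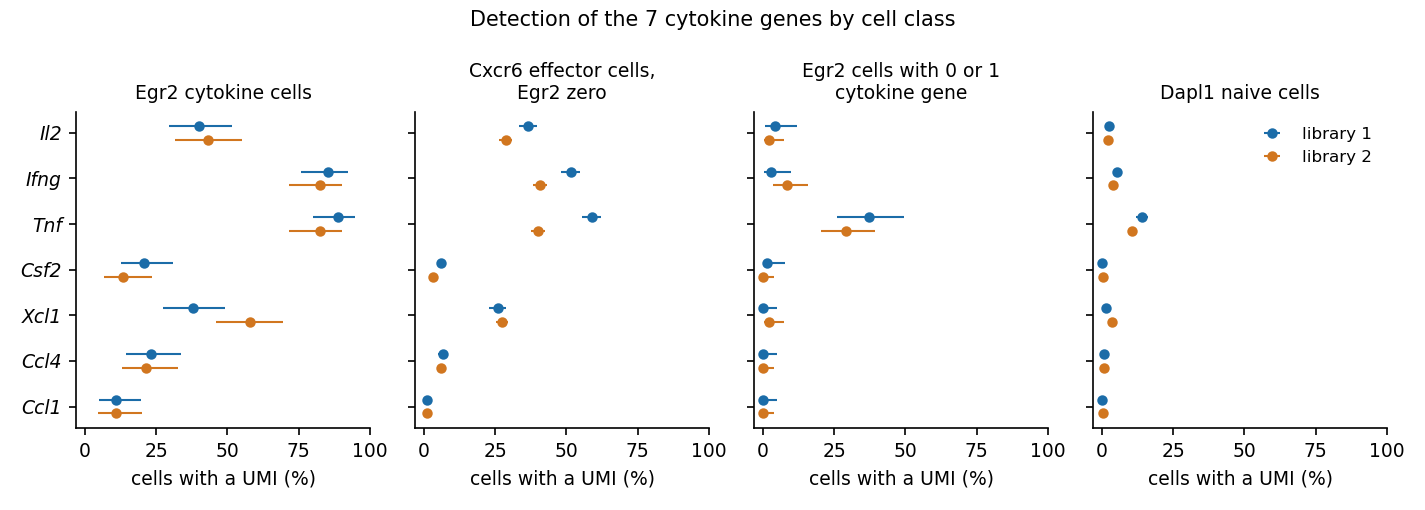
Percent of cells with at least 1 UMI (horizontal axis) of each of the 7 cytokine and chemokine genes (vertical axis), with 1 panel for each cell class, 1 point for each library and exact 95% binomial intervals for counting error only. In Egr2 cytokine cells Tnf and Ifng stand above 80% in both libraries by choice of the members, and naive cells with Dapl1, shown as background, have Tnf in 14.2% and 10.7%.

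Of the members, 57 had exactly 2 of the 7 genes, 56 had 3, 21 had 4, 15 had 5, 7 had 6 and 0 had all 7. Il2 was joined by Tnf in 58 members and by Ifng in 54. Xcl1 was joined by Ifng in 58 and by Tnf in 58, and by Ccl4 in 28. Ccl4 and Ccl1 were found together in 8. At least 1 of the chemokines Xcl1, Ccl4 and Ccl1 was found in 85 members. Chemokine transcripts were spread unevenly over cells. The top cell held 200 and 291 Ccl4 UMIs in libraries 1 and 2, 382 and 181 Xcl1 UMIs, and 240 and 69 Ccl1 UMIs, which was 65.6% and 35.8% of all Ccl1 UMIs of the members. The Tnf UMIs of the members were spread more evenly, with 6.79% and 7.27% of them in the top cell. Summed levels of Ccl4 and Ccl1 are therefore levels of few cells. Xcl1 was found in 31 and 43 members, with 40.3% and 18.9% of its UMIs in the top cell.

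The 2455 cells used for comparison had no Foxp3 and no Egr2 UMI and at least 1 UMI of Cxcr6, a chemokine receptor of tissue-resident effector T cells. They are called Cxcr6 effector cells. Among them Ifng was detected in 51.6% and 40.7% and Tnf in 58.9% and 40.2%, so transcripts of both were common in cells without an Egr2 UMI. As a background, the 1109 and 2400 naive-type cells with Dapl1 and without Foxp3, Cxcr6 and Egr2 UMIs had Ifng in 5.23% and 4% and Tnf in 14.2% and 10.7%, at median depths of 6468 and 4786.5 UMIs. Members had medians of 7445 and 5010 UMIs against 6228 and 4568.5 in effector cells. A deeper cell passes the rule more easily, and 17 and 9 members above 12000 UMIs held 47.7% and 38.5% of all members' UMIs, against 29.6% and 13.5% for effector cells. Hashtags of more than 1 sample marked 9.76% and 17.6% of members and 6.44% and 14.2% of effector cells. By UMIs the classes were less alike. Without these cells the UMIs of library 2 members went from 531160 to 319655, and those of its effector cells from 8279859 to 6808151. In library 1 they went from 871095 to 707691 and from 6675800 to 5895889. The deepest member of library 2 held 65535 UMIs. The comparisons below were repeated in 3 ways: with cells of 4000 to 12000 UMIs only, without cells with hashtags of more than 1 sample, and without cells with markers of other cell types. These are called the 3 exclusions.

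The label of the cells as conventional CD4 T cells was compared with genes outside the rule. Cd3e was detected in 98.8% and 90.5% of members and Cd4 in 67.1% and 59.5%, against 66.4% and 48.7% of effector cells. Cd8a was detected in 0 of 82 and 0 of 74 members. A member of library 1 had 2375 UMIs of the myeloid gene Lyz2 and none of Cd3e, Trac or Cd4, so the label may not hold for every member. The invariant NKT receptor gene segment Trav11 was found in 1.22% and 2.70% of members. A UMI of the NK receptor gene Klrb1c or of Zbtb16, the transcription factor of innate-like T cells, was found in 24 of 156. Neither gene was found in 72 of 82 and 60 of 74 members, against 802 of 869 and 1441 of 1586 effector cells. Of the markers proposed for these cells (Egr2, Xcl1, Csf2, Ccl4 and Tnfrsf9), only Tnfrsf9 lies outside the rule. That they were acutely stimulated is a label that no measurement here timed. The Egr2 evidence was thin per cell, with 1 UMI in 111 members and 2 to 9 UMIs in 45.

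Members were first compared with Cxcr6 effector cells to ask which other genes went with Egr2 and cytokine transcripts. Transcripts of T cell receptor signalling were higher in members: the costimulatory receptor Tnfrsf9 (4-1BB), Egr3, the Nr4a receptors, the NF-kB subunit Rel and the transcription factor Irf8 all rose. Genes that tie T cells to interleukins 7 and 18, Il7r and Il18r1, fell. The Th1 effector background did not pass the test in either direction for Tbx21, Ccl5, Nkg7 or Cxcr3. Raw counts were summed per class and library and tested with edgeR, with the library as a term, on 10610 genes. At a Benjamini-Hochberg adjusted p under 0.05, 228 genes differed (2.15% of those tested), 182 higher (1.72%) and 46 lower (0.434%). Levels are given in CPM, counts scaled to the total UMIs of the class, and 3-prime counting makes them comparable between classes but not per length between genes. The genes were counted in the same cells that the rule chose.

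Tnfrsf9, whose product sustains activated T cells, stood at 55.1 CPM in members of library 1 and 56.5 in those of library 2, against 7.19 and 8.82 CPM in effector cells. Its log2 fold change was 2.80 ± 0.29 (SE), with an edgeR adjusted p of 2.55e-19. It was detected in 14.6% and 12.2% of members, against 3.68% and 3.15% of effector cells and 1.53% and 1.12% of naive cells. With each cell thinned to 2000 UMIs the shares were 6.098% and 7.143% against 1.05% and 1.09%. Even so, most members had no Tnfrsf9 UMI. The gene was concentrated in members without a Cxcr6 UMI, at 110 and 176 CPM against 26.2 and 12.9 CPM in members with one. Among members with Cxcr6 alone its difference from effector cells no longer passed the test (log2 fold change 1.32, edgeR adjusted p = 0.229), an alternative chosen after the data were seen. Other genes given here as changed that were not called among members with Cxcr6 included Nr4a2, Myc, Il2ra, Lta, Ccl3, Cd160 and Bcl2a1d. Odc1, Lyz2, H2-Ab1, Hspa1a, Ifngr1, Pclaf, Hivep3 and Plek were not called there either. Egr3, Nr4a1, Rel and Irf8 were called there.

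Egr3, which overlaps in function with Egr2, stood at 116 and 218 CPM in members and 35.8 and 22.6 CPM in effector cells (log2 fold change 2.46 ± 0.17, edgeR adjusted p = 1.88e-43). It was detected in 50% and 43.2% of members against 17.4% and 8.89% of effector cells, and after thinning in 14.6% and 18.6% against 5.60% and 3.71%. Naive cells had it in 3.61% and 1.5%. Egr1, the immediate early member of the family, rose by 1.37 ± 0.13 on the log2 scale and Nab2, a corepressor that binds EGR proteins, by 1.47 ± 0.24. Among the nuclear receptors, Nr4a1 rose by 1.47 ± 0.15, Nr4a3 by 1.39 ± 0.15 and Nr4a2 by 1.19 ± 0.23. All 6 passed the edgeR test, both with TMM scaling and with library size alone.

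Of the 25 genes of T cell receptor signalling and activation, all tested, 14 were higher and 0 lower, with a median log2 fold change of 0.74 against -0.004 over all genes tested. Besides those named, the higher ones were Irf4, Irf8, Myc, Cd69, Crtam, Tagap, Il2ra and Cd40lg. Of the 14, 12 were called in each of the 3 exclusions, and Irf4 and Il2ra were not. Irf8 stood at 88.4 and 124 CPM against 34.5 and 15.6 (2.09 ± 0.20). It too was higher in members without a Cxcr6 UMI, at 130 and 344 CPM, than in members with one, at 66.5 and 43.7 CPM. Cd69, which holds T cells in tissue, rose by 0.74 ± 0.11, and Il2ra, the high-affinity interleukin 2 receptor chain, by 1.17 ± 0.32. The NF-kB list of subunits and feedback genes had 3 higher and 0 lower of 17 with a median of 0.29. These were Rel at 165 and 190 CPM against 76.1 and 47.0 (1.52 ± 0.15), Nfkbia (0.48 ± 0.10) and the atypical inhibitor Nfkbid (0.93 ± 0.13). In the MAP kinase feedback list 1 of 10 passed, the phosphatase gene Dusp2, at 241 and 326 CPM against 109 and 151 (1.12 ± 0.12).

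**Figure D2:**
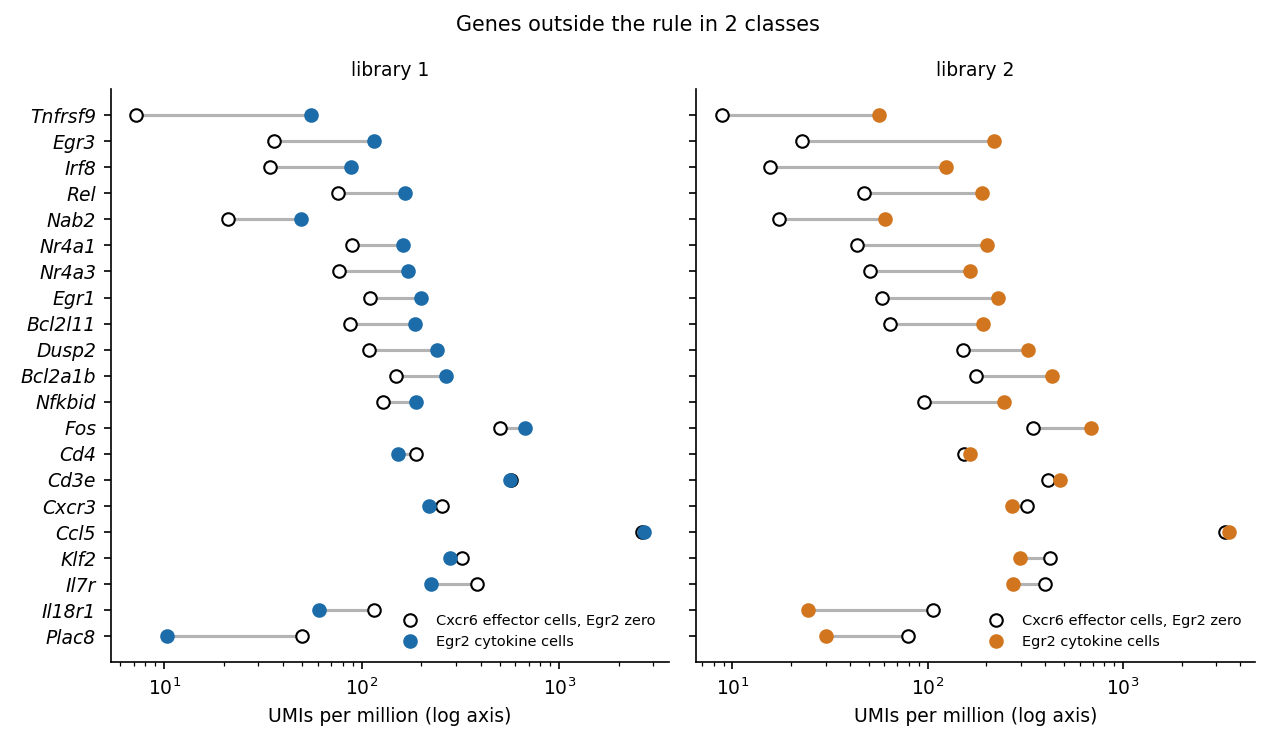
Level in CPM (horizontal axis, log scale) of genes outside the rule (vertical axis) in Cxcr6 effector cells (open circles) and Egr2 cytokine cells (filled circles), with 1 panel for each library and a line joining the classes. Tnfrsf9 and Egr3 are farther right in Egr2 cytokine cells in both libraries, Ccl5 lies nearly on top of itself, and Il7r, Il18r1 and Plac8 are farther left.

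Other ligands were also higher. Of the 7 TNF-family ligands, 4 rose and 0 fell (median 0.54): Tnfsf14 (LIGHT) by 1.23 ± 0.20, Tnfsf9 (the ligand of 4-1BB) by 1.58 ± 0.36, Tnfsf11 (RANKL) by 1.08 ± 0.26 and Cd40lg by 0.46 ± 0.11. Tnfsf11 was not called among cells of 4000 to 12000 UMIs (edgeR adjusted p = 0.139). Of 9 tested cytokines outside the rule, Il4, Il13 and Lta rose, at a list median of 0.40. The Il4 reads came from 8 and 4 members, of which 1 cell a library held 42.9% and 67.1%. Il13 came from 2 and 2 cells with 97.0% of its library 2 UMIs in 1 cell, and it could not be tested among cells of 4000 to 12000 UMIs. Ccl3, a chemokine gene next to Ccl4, was found in 6 and 3 members (40.2 and 104 CPM against 2.10 and 12.4; log2 fold change 3.41 ± 0.28) with 60.0% and 83.6% of UMIs in 1 cell. Ccl3 stood at 5.25 and 23.1 CPM in members with Cxcr6 and 107 and 323 CPM in those without. Crtam, an adhesion receptor of activated T cells, was found in 7 and 3 members and Cxcl9 in 4 and 6. These rare transcripts passed the edgeR test but describe a few cells.

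Survival genes were higher on both sides of the BCL2 family. The antiapoptotic genes Bcl2a1b (266 and 433 CPM against 149 and 177; 1.06 ± 0.11) and Bcl2a1d (1.00 ± 0.15) rose, and so did Bcl2l11, which encodes the proapoptotic BIM (186 and 192 CPM against 87.3 and 63.9; 1.31 ± 0.14). They were 3 of 9 in the list, with 0 lower and a median of 0.23. Bcl2a1b and Bcl2a1d are close paralogs, and reads could be split between them. Of 10 inhibitory receptors 1 rose, Cd160, at 90.7 and 97.9 CPM against 33.3 and 55.4 (1.13 ± 0.18). The growth and ribosome biogenesis list had 7 higher and 0 lower of 18 (median 0.43), among them Nop58 (0.92 ± 0.15) and the translation factor Eif5a (0.58 ± 0.09). In library 1, the top cell held 45.1% of the members' UMIs of Nop58 and 34.0% of those of Npm1. Of the 7, only Odc1 and Eif5a were called in each of the 3 exclusions. Nop58 was not called among cells of 4000 to 12000 UMIs (edgeR adjusted p = 0.357).

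Genes induced by tissue handling overlap with those of receptor signalling. In the list of immediate early and dissociation genes 6 of 17 were higher and 0 lower (median 0.26), with Fos at 669 and 683 CPM against 501 and 346 (0.68 ± 0.09) and Gadd45b at 489 and 457 against 270 and 225 (0.93 ± 0.10). Of 11 heat shock genes 5 rose and 2 fell: Hspa1a and Hspa1b, the stress-inducible forms, fell by 0.73 ± 0.18 and 0.67 ± 0.16, and chaperones of growing cells such as Hspd1 rose by 0.87 ± 0.12. Of these 7 genes 0 were called in each of the 3 exclusions, and of the 6 immediate early genes 4 were, Fos and Gadd45b among them. The part of dissociation in the other results was not tested.

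Among genes that were lower, Il7r, the interleukin 7 receptor, stood at 224 and 273 CPM against 382 and 398 (log2 fold change -0.67 ± 0.11, edgeR adjusted p = 5.99e-08). Il18r1, the interleukin 18 receptor, stood at 60.8 and 24.5 CPM against 115 and 106 (-1.31 ± 0.18). Plac8, whose function in T cells is little known, stood at 10.3 and 30.1 against 50.03 and 79.71 (-1.79 ± 0.26). The list of 15 cytokine receptors had 1 higher, Il2ra, and 3 lower, with Ifngr1 (-0.38 ± 0.10) beside Il7r and Il18r1. Ifngr1 was called in 0 of the 3 exclusions. Of 12 Th1 genes 0 rose and 1 fell, Il18r1, at a median of -0.01. In that list Ccl5, a chemokine of effector cells, stood at 2674 and 3511 CPM against 2641 and 3335, and Cxcr3 had a log2 fold change of -0.24 ± 0.11 (edgeR adjusted p = 0.428). Of 8 tested T cell identity genes 0 were called, with a median of 0.01.

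Markers of other cell types moved too. Of 6 tested myeloid genes 6 were higher (median 2.50), with unequal libraries. The 10 myeloid genes summed to 4400.2 and 570.5 CPM in members and 348 and 214.5 CPM in effector cells, and Csf1r, Itgam and Adgre1 were at 0 in members of library 2. One member of library 1, with 62243 UMIs, held 98.5% of the Lyz2 UMIs (2375 of them) and had no Cd3e, Trac or Cd4 UMI. Without this cell the myeloid sum of library 1 was 1309 CPM. The class II gene H2-Ab1, with 93.6% and 65.6% of its UMIs in 1 cell a library, was not called without cells with hashtags of more than 1 sample (edgeR adjusted p = 0.205) or without cells with markers of other cell types (edgeR adjusted p = 0.819). All 4 tested globin genes were lower, with Hbb-bs at 33.3 and 22.6 CPM against 66.7 and 320. Of 4 tested B cell genes 2 were lower and 0 higher, the 8 genes of the list summed to 98.7 and 109 CPM against 196 and 188, and Ms4a1 was at 0 in members. The stromal list had 0 of 2 called. Of the 228 genes, 51 higher and 9 lower were called in each of the 3 exclusions. Tnfrsf9, Egr3, Egr1, Nr4a1, Nr4a2, Nr4a3, Nab2, Rel, Irf8, Cd160, Bcl2a1b, Bcl2l11, Il7r, Il18r1 and Plac8 were among them.

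The call depended on the error model: DESeq2 called 33 genes higher and 2 lower, all among the calls above, and Egr3 had a DESeq2 adjusted p of 0.125. With 4 sums there is 1 residual degree of freedom. Thinned to 2000 UMIs a cell, 38 were higher and 3 lower. Without cells with Klrb1c or Zbtb16, which is not among the 3 exclusions, 77 were higher and 16 lower.

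The same comparison was then made inside hashed samples, where each sample supplied both classes. In 6 hashed samples with at least 10 members, 16 genes were higher and 5 lower in members in an edgeR fit with the sample as a block, on 5677 genes. All 16 higher and 4 of the 5 lower were also called over libraries. In the order SAT1, SAT2, SAT4, VAT1, VAT3 and VAT4, Tnfrsf9 stood at 91.5, 87.6, 21.0, 26.0, 27.1 and 31.6 CPM in members, against 4.92, 6.87, 9.12, 7.87, 2.56 and 1.90 CPM in the effector cells of the same samples. The ranges did not overlap, and SAT1 and SAT2, both of experiment 1, were the highest, with 15 and 14 UMIs. The members of SAT4, VAT1, VAT3 and VAT4 held 2, 4, 2 and 2 UMIs, and the VAT4 effector cells 2. The log2 fold change was 3.04 ± 0.44 (edgeR adjusted p = 0.00233).

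Egr3 in those samples stood at 146, 93.9, 210, 123, 271 and 221 CPM in members against 45.1, 64.1, 31.0, 27.2, 32.5 and 16.2 in effector cells. It was higher in 6 of 6 samples and the ranges did not overlap (2.25 ± 0.29, edgeR adjusted p = 0.000761). Nr4a1 was higher in 6 of 6 (1.478 ± 0.245), though in SAT2 by little, at 93.9 CPM against 90.4. Rel was higher in 5 of 6 (1.33 ± 0.29), with 372 CPM in SAT1 members and 58.5 against 67.3 in VAT1. Irf8 was higher in 5 of 6 and at 0 in the members of VAT1. Pdcd1lg2, which encodes the PD-1 ligand PD-L2 and was singled out after its values were seen, was higher in 6 of 6 (2.31 ± 0.39, edgeR adjusted p = 0.00817).

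Il7r was lower in 6 of 6 samples, at 61.0, 138, 252, 247, 217 and 237 CPM in members against 186, 442, 275, 365, 478 and 441 (-0.96 ± 0.18, edgeR adjusted p = 0.0134). SAT1 had the lowest level in both classes. Il18r1 was lower in 6 of 6 (-1.53 ± 0.29), as was Plac8 (-2.04 ± 0.36). S1pr1, the receptor that leads T cells out of tissue, was lower in 6 of 6 (-1.12 ± 0.23, edgeR adjusted p = 0.0232) but was not called over libraries (-0.25 ± 0.14, adjusted p = 0.584). S1pr1 was singled out after its values were seen.

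**Figure D3:**
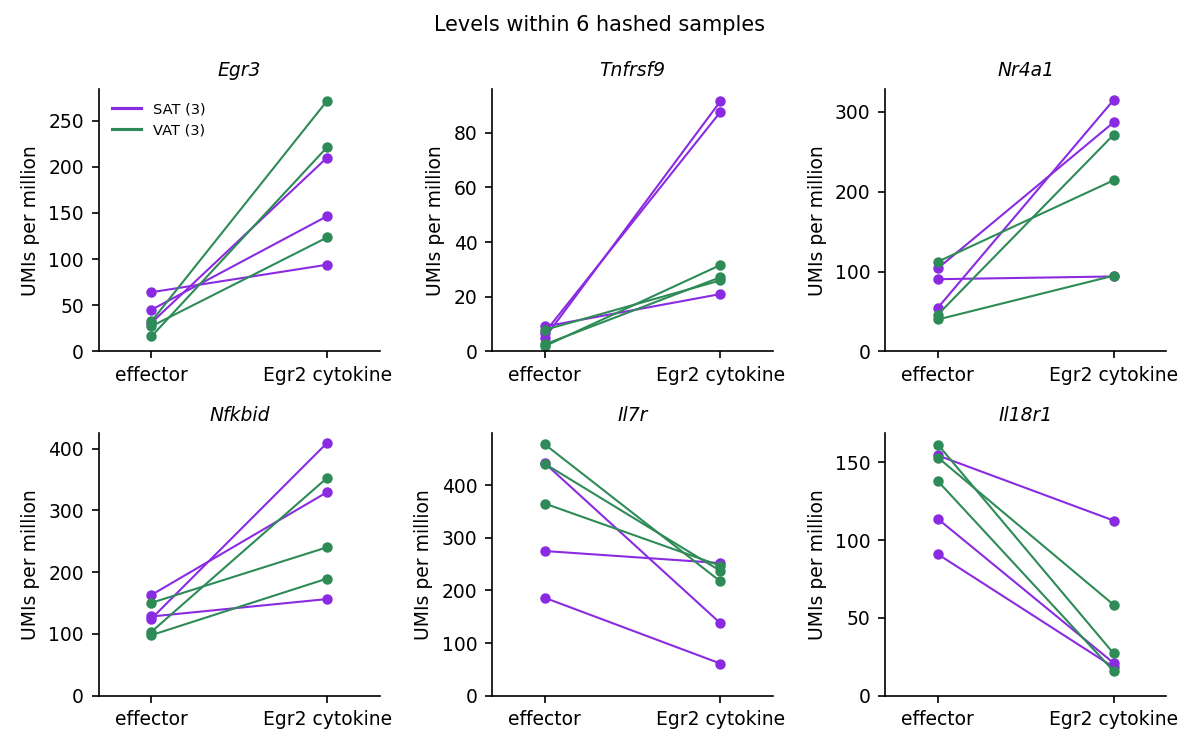
Level in CPM (vertical axis, linear from 0) of 6 genes in Cxcr6 effector cells and Egr2 cytokine cells (horizontal axis) of the same 6 hashed samples, with a line joining the classes of each sample, purple for SAT and green for VAT. For Tnfrsf9 and Egr3 each of the 6 lines rises from effector cells to members, and for Il7r and Il18r1 each falls.

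A stricter partner was taken after the data were seen: the 518 and 671 effector cells that themselves had at least 2 of the 7 cytokine genes, so that both sides passed the cytokine part of the rule. The sides still differed in Cxcr6 as well as in Egr2, since each partner cell has a Cxcr6 UMI by choice and 65.9% and 70.3% of members do. Ccl5 stood at 1916 and 2672 CPM in members without Cxcr6 and at 3071 and 3818 CPM in members with it. On 9754 genes 202 differed (2.07%), 150 higher (1.54%) and 52 lower (0.533%), of which 135 and 23 were also called against all effector cells. Of 24 receptor signalling genes 13 were higher and 0 lower (median 0.84). Of 12 Th1 genes 0 were higher and 4 lower: Il18r1, Ccl5, Id2 and Ly6c2 (median -0.27). Il7r was not called against this partner (log2 fold change -0.17, edgeR adjusted p = 0.750).

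Because many of the genes that moved together are known targets of receptor signalling, the 250 bases before the start of several were read for short motifs, on both strands. The motifs were the NFAT core GGAAA, AP-1 TGANTCA, NF-kB (GGG and CC with 5 free bases between), EGR GCGNGGGCG, CRE TGACGTCA and the TATA box TATAAA. Of 24 genes looked up, 20 had an entry in the RefSeq promoter table (GRCm38.p6). The 5 below are shown since they carry a rule cytokine (Il2), a chemokine whose level is compared between depots below (Xcl1) and 3 genes outside the rule that rose. Capitals mark matches, 5′ to 3′ on the coding strand. Il2 lies at chr3:37125955-37126204 (minus strand), Xcl1 at chr1:164935523-164935772 (minus), the second listed start of Tnfrsf9 at chr4:150927749-150927998 (plus), Rel at chr11:23770970-23771219 (minus) and Nr4a1 at chr15:101266596-101266845 (plus).
Il2: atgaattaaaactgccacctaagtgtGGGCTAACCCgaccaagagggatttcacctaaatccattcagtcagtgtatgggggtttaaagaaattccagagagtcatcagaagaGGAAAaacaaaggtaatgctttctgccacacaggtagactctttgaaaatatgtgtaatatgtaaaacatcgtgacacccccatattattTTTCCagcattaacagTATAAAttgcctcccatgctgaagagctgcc
Xcl1: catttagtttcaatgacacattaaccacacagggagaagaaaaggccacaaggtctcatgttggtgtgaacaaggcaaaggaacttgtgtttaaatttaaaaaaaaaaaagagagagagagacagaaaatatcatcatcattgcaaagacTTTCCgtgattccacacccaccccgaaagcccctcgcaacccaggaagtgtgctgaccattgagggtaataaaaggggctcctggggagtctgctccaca
Tnfrsf9: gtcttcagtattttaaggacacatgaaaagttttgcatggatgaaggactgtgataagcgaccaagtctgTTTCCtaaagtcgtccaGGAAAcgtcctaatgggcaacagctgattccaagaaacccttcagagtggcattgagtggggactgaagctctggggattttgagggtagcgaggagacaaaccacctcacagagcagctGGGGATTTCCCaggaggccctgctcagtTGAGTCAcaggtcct
Rel: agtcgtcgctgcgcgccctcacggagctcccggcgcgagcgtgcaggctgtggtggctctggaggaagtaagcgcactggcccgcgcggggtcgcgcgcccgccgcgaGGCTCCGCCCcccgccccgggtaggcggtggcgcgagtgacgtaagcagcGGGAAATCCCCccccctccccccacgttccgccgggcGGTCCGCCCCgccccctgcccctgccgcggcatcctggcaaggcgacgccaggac
Nr4a1: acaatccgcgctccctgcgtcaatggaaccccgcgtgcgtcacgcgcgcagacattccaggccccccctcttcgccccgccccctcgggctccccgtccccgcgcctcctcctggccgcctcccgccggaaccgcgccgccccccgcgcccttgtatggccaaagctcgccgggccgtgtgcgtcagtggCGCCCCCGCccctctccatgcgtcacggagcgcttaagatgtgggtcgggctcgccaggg
Il2 held the NFAT core at 2 places, 1 NF-kB match and a TATA box. Xcl1 held 1 NFAT core. Tnfrsf9 held 3 NFAT cores, 1 of them inside its NF-kB match, 2 overlapping NF-kB matches, and an AP-1 match starting 15 bases before the start. Rel held 4 NF-kB matches, of which 2 overlap each other, and 1 NFAT core within them. Nr4a1 held an EGR match. The first listed start of Tnfrsf9, not shown, held 2 NFAT cores and 0 AP-1 and 0 NF-kB matches. Among 32851 promoters of the same length, 55.57% held the NFAT core, 45.8% the NF-kB letters, 12.37% the TATA box, 6.749% the AP-1 letters, 4.697% the EGR letters and 1.546% the CRE letters. A match is a description of the letters only.

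Members were next compared with the other Foxp3-zero Egr2 cells, the 70 and 96 cells with 0 or 1 of the 7 cytokine genes, to ask what separated Egr2 cells with and without cytokine transcripts. Effector genes were far higher in members and naive genes lower, while most receptor signalling genes did not pass the test. Of 6653 genes tested with edgeR, 373 differed (5.61%), 197 higher (2.96%) and 176 lower (2.65%). The count rests on the library term: without it 0 genes were called, with 452 at an unadjusted edgeR p under 0.05, and DESeq2 called 17 higher and 5 lower.

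The chemokine gene Ccl5 stood at 2674 and 3511 CPM in members and 529 and 739 CPM in the other Egr2 cells (log2 fold change 2.21 ± 0.13, edgeR adjusted p = 6.29e-18). The granule gene Nkg7 stood at 546 and 892 CPM against 111 and 203 (2.13 ± 0.21), and the Th1 regulator Tbx21 at 111 and 64.0 against 31.3 and 30.6 (1.44 ± 0.32). Cd160 rose by 4.75 ± 0.51 and the NK-type receptor Klrg1 by 4.16 ± 0.50. Of 12 Th1 genes 8 were higher and 0 lower, at a median of 1.32 against -0.01 over all genes tested. The interleukin 2 receptor chain Il2rb rose by 1.49 ± 0.24. Of 18 genes of tissue retention and effector structure 8 were higher and 0 lower (median 0.78), among them the integrin gene Itga1 (1.79 ± 0.37) and Rgs1 (1.82 ± 0.26).

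Of 13 naive and recirculation genes 0 were higher and 10 lower (median -1.16). Dapl1, a marker of naive T cells, stood at 78.1 and 54.6 CPM against 176 and 312 (-1.86 ± 0.27). Lef1, a transcription factor of naive cells, had a log2 fold change of -1.476 ± 0.235, the lymph node homing receptor gene Ccr7 of -1.16 ± 0.27, and Il7r of -0.95 ± 0.21. Itm2a, Id3 and Igfbp4 had -2.12 ± 0.31, -1.94 ± 0.31 and -2.01 ± 0.27. The cell cycle list had 8 higher and 0 lower of 11 (median 1.58), with Top2a at 177 and 77.2 CPM against 40.4 and 7.66. Its transcripts came from 13 and 13 members, and of the 8 called genes 0 were called in each of the 3 exclusions. Mki67, Birc5 and Rrm2 could not be tested among cells of 4000 to 12000 UMIs and were called higher in both other exclusions. Cdk1 and Mcm5 could not be tested there either and were called in neither of the others. Of the 10 naive genes 7 were called in each of the 3 exclusions, and Il7r was not. Of the 8 Th1 genes 5 were, with Ccl5, Nkg7 and Tbx21 among them, and of the 8 retention genes 1, Rgs1.

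Of 23 receptor signalling genes 6 were higher and 0 lower (median 0.40): Nr4a2, Nr4a3, Irf8, Myc, Bhlhe40 and Il2ra. Of these 0 were called in each of the 3 exclusions. Nr4a2, Nr4a3, Irf8 and Bhlhe40 were called higher among cells of 4000 to 12000 UMIs and without cells with markers of other cell types. They were not called without cells with hashtags of more than 1 sample. Neither Myc nor Il2ra was called in any exclusion, and Il2ra could not be tested among cells of 4000 to 12000 UMIs. Egr3 stood at 116 and 218 CPM in members and 82.1 and 134 in the other Egr2 cells (0.52 ± 0.25, edgeR adjusted p = 0.308). Nr4a1 had a log2 fold change of 0.28 ± 0.26 (adjusted p = 0.727) and Tnfrsf9 of 0.49 ± 0.33 (adjusted p = 0.582). These directions did not hold throughout: Nr4a1 was -0.20 and Tnfrsf9 -0.16 from library 2 alone, against 0.97 and 1.36 from library 1 alone. Nr4a1 was -0.0601 among cells of 4000 to 12000 UMIs, and Egr3 was -0.0175 after thinning. Egr1 had -0.63 ± 0.22 (adjusted p = 0.0951). A p that misses the threshold does not show that the levels were alike. Egr2 itself stood at 160 and 245 CPM in members and 145 and 234 CPM in the other Egr2 cells, as a description. In library 1 the other Egr2 cells held 1 cell of 136931 UMIs with 1301 UMIs of the macrophage gene Mmp12, and their summed myeloid level was 6090 and 117 CPM. Their globin level was 2849 and 40.2 CPM. Without cells with markers of other cell types 245 genes were higher and 221 lower, and among cells of 4000 to 12000 UMIs 472 were called.

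By tissue, these other Egr2 cells were spread over all sources. In library 1, 23.2% of those with a hashtag were from SAT, 39.3% from VAT, 16.1% from BAT and 21.4% from spleen, and in library 2, 32.8%, 16.4%, 14.9% and 35.8%. Members came from SAT in 58.1% and 48.2% and from VAT in 37.1% and 44.6%. Effector cells came from SAT in 42.7% and 47.3% and from VAT in 43.0% and 37.7%. These shares stand beside the gene differences above, and their part in them was not tested.

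The edge of the rule was described by strata, with no test. Members with exactly 2 cytokine genes stood at 82.1 and 92.0 CPM of Egr3, below the 163 and 224 CPM of Egr2 cells with exactly 1, and at 69.4 and 63.2 CPM of Nr4a3 against 95.5 and 170. Ccl5 went the other way, at 2812 and 2495.5 CPM against 1019 and 1312. Cells with 0 cytokine genes had 243 and 249 CPM of Ccl5. With 4 or more cytokine genes, members stood at 324 and 262 CPM of Rel, 181 and 84.5 of Tnfrsf9 and 282 and 231 of Irf8, against 72.6 and 138, 12.6 and 51.7, and 15.8 and 28.7 CPM in those with exactly 2. The 747 and 1064 Egr2-zero cells that had at least 2 cytokine genes and no Foxp3 stood at 43.0 and 30.7 CPM of Egr3. Members with at least 2 Egr2 UMIs stood at 181 and 389 CPM of Egr3 and those with 1 at 83.0 and 138.

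**Figure D4:**
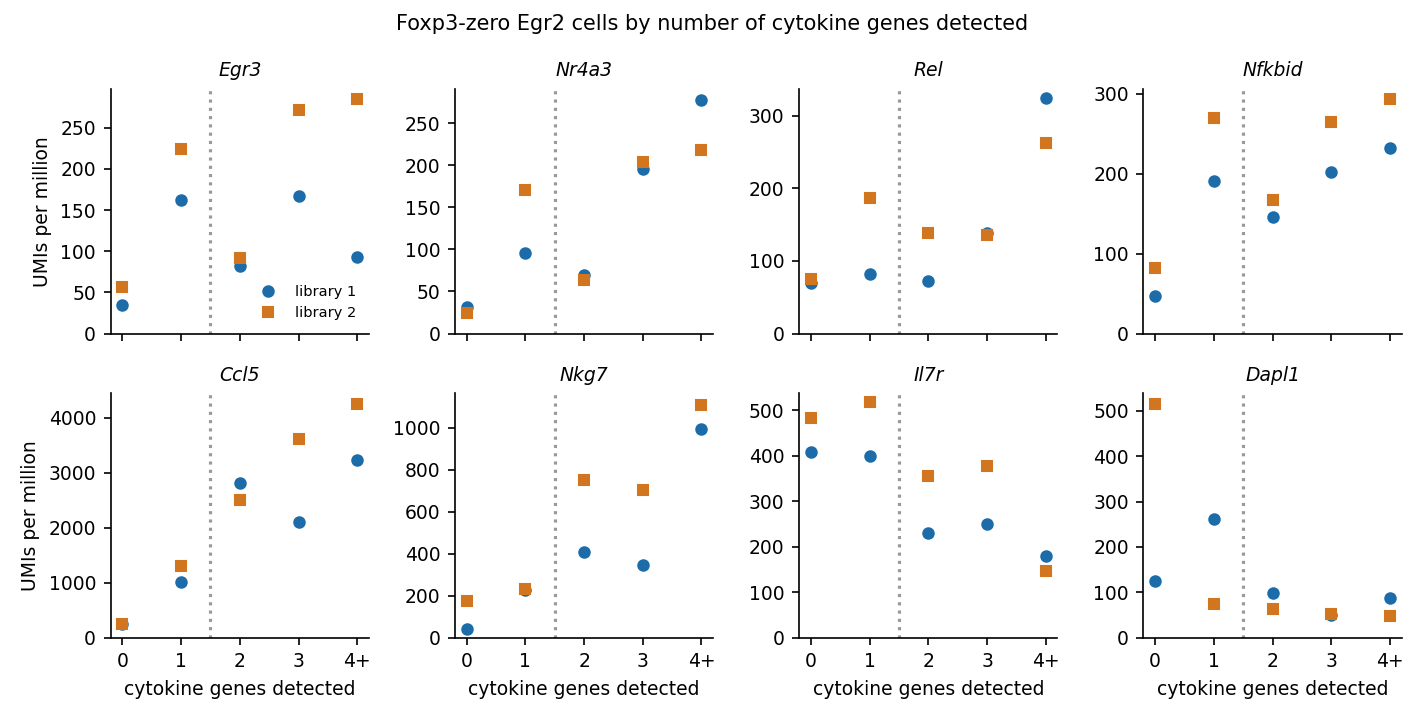
Level in CPM (vertical axis) of 8 genes by number of the 7 cytokine genes detected in Foxp3-zero Egr2 cells (horizontal axis), 1 point for each library, summed over cells and with no test. The dotted line marks the edge of the rule, where Ccl5 goes from 1019 and 1312 to 2812 and 2495.5 CPM while Egr3 is lower at exactly 2 genes than at exactly 1.

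The tissue shares were taken over cells with the hashtag of 1 sample. Egr2 cytokine cells were found in SAT and VAT and were near the limit of counting in BAT and spleen. They made up 4.77%, 4.15%, 1.16% and 2.29% of T cells in SAT replicates 1 to 4 (22 of 461, 14 of 337, 8 of 692 and 19 of 830 cells), and 3.51%, 1.61%, 1.70% and 1.477% in VAT (17 of 485, 6 of 372, 15 of 884 and 10 of 677). In BAT the shares were 0.196%, 0%, 0.146% and 0.190%, and 0 of 418 cells in replicate 2 allows a share of up to 0.718% by a limit of 3 counts (exact upper bound 0.879%). Spleen had 0.290%, 0.231%, 0.120% and 0.106%. All 8 SAT and VAT samples lay above all 8 BAT and spleen samples, where no sample held more than 1 member. Replicates 1 and 2 are of experiment 1 and replicates 3 and 4 of experiment 2.

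The means were 3.09% ± 1.67 (SD, n = 4) in SAT, 2.07% ± 0.959 in VAT, 0.133% ± 0.0916 in BAT and 0.187% ± 0.0887 in spleen. Tests permuted tissue labels within experiments, which allows 36 arrangements and no two-sided p below 0.0556, so that no pair could pass 0.05. SAT exceeded BAT by 2.96 percentage points (4.37 in experiment 1 and 1.55 in experiment 2) and spleen by 2.91, and VAT exceeded BAT by 1.94 and spleen by 1.89. Each of these reached the smallest exact permutation p of 0.0556 (Benjamini-Hochberg 0.0833 over 6 pairs). SAT and VAT differed by 1.02 points, 1.90 in experiment 1 and 0.136 in experiment 2, with an exact permutation p of 0.167 (adjusted 0.200). BAT and spleen differed by -0.0534 points (exact permutation p = 0.611). Under stricter hashtag calls SAT replicate 1 had too few cells for a share. The means were then 2.56% ± 1.49 (SD, n = 3) in SAT, 2.05% ± 0.886 in VAT, 0.107% in BAT and 0.121% in spleen. SAT then exceeded VAT by 0.921 points as the mean of the differences within experiments (exact permutation p = 0.444). It exceeded BAT by 2.87 points and spleen by 2.85 (each exact permutation p = 0.0556).

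**Figure D5:**
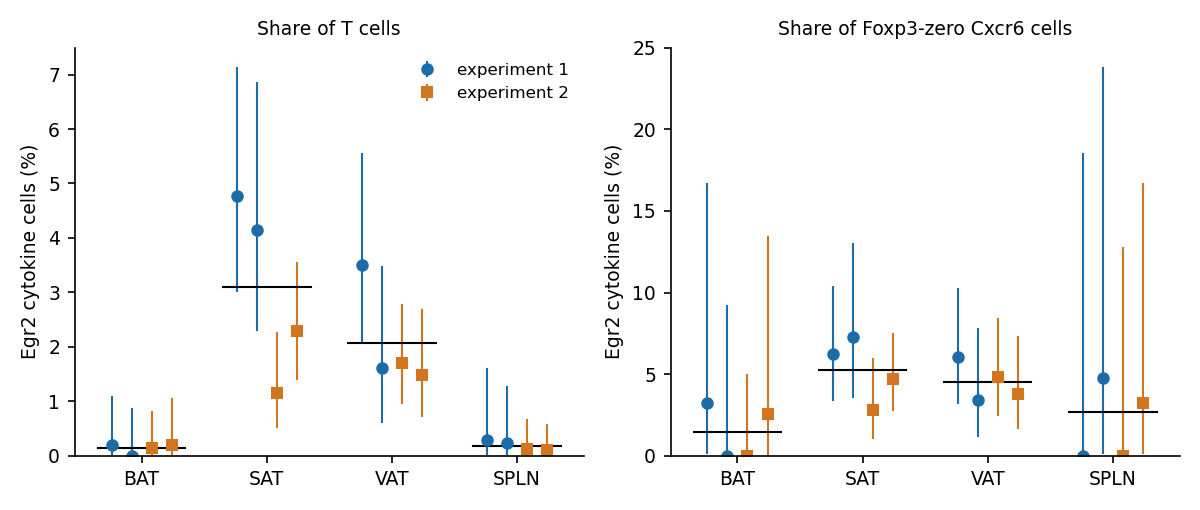
Share of Egr2 cytokine cells in percent (vertical axis) by tissue (horizontal axis), 1 point for each hashed sample with exact 95% binomial intervals for counting error only, and black lines at tissue means; the panels take all T cells (left) or Foxp3-zero Cxcr6 cells (right) as the whole, and the right spleen mean leaves out the sample with under 20 such cells. SAT and VAT lie above BAT and spleen among T cells (means 3.09% and 2.07% against 0.133% and 0.187%), and the intervals overlap widely among Cxcr6 cells.

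The share was also taken among Foxp3-zero cells with Cxcr6, since the tissues held different numbers of these. Among Foxp3-zero cells with Cxcr6, members made up 5.25% ± 1.96 (SD, n = 4) in SAT (45 of 901 cells), 4.51% ± 1.17 in VAT (36 of 785), 1.45% ± 1.69 in BAT (2 of 180) and 2.66% ± 2.43 in the 3 spleen samples with at least 20 such cells (2 of 97 over all 4). SAT exceeded BAT by 3.81 points and VAT exceeded BAT by 3.065, each at an exact permutation p of 0.0556 (adjusted 0.167). The difference between SAT and spleen was 2.07 points as the mean of the differences within experiments (exact permutation p = 0.167 over 18 arrangements). Without cells with Klrb1c or Zbtb16 and after thinning it was -1.41 and -2.63 points (exact permutation p = 0.333 and 0.667). In both settings 1 spleen sample had at least 20 such cells, which allows 3 arrangements and no exact permutation p below 0.333. SAT and VAT differed by 0.742 points (exact permutation p = 0.5). The exact interval of spleen replicate 2 ran up to 23.8%, so that a difference from fat was not detectable there at this number of cells. With each cell thinned to 2000 UMIs the shares of T cells were 0.922% ± 0.646 in SAT, 0.792% ± 0.184 in VAT, 0.0419% in BAT and 0.0267% in spleen, after leaving out 152, 60, 142 and 27 shallower cells. SAT and VAT then differed by 0.130 points (exact permutation p = 0.722).

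Finally, members of SAT were compared with members of VAT over 3 hashed samples each, on 1910 genes. With edgeR 0 genes passed (0.0%), with 101 at an unadjusted p under 0.05, and DESeq2 called 0 with 29 at an unadjusted p under 0.05. Xcl1 stood at 2148, 2459.5 and 2582 CPM in SAT1, SAT2 and SAT4 and at 143, 1343 and 142 CPM in VAT1, VAT3 and VAT4. These levels rest on few cells: 1 cell held 382 of the 393 Xcl1 UMIs of SAT2, and without each sample's top cell the levels were 1072.5, 72.1 and 1683 CPM in SAT and 47.2, 356 and 76.5 CPM in VAT, with overlap. The rule genes were not left out of this fit. Since Xcl1, Ifng and Tnf helped to choose the members, their levels are given as a description.

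Xcl1 was detected in 33 of 63 SAT members (52.4%) and 17 of 48 VAT members (35.4%), and among Cxcr6 effector cells in 298 of 840 (35.5%) and 143 of 736 (19.4%). In effector cells its level was 209, 366 and 323 CPM in SAT1, SAT2 and SAT4 and 70.2, 132 and 104 CPM in VAT1, VAT3 and VAT4, without overlap, and without each sample's top cell 195, 324 and 307 CPM against 60.3, 121 and 86.0. Ccl4 was detected in 19 of 63 SAT members and 6 of 48 VAT members. Ifng stood at 623, 225 and 1480.0 CPM in SAT and 494, 1425 and 363 CPM in VAT, with overlap. Each side held samples of both libraries, and the model had a term for the experiment.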

How the data were processed

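RNA of sorted CD4 T cells was measured in 2 droplet libraries of the 10x 3-prime type. Each deposited matrix gives unnormalized UMI counts of 55487 genes and of 15 hashtags for every barcode. Cell Ranger 6.1.0 made both, per the file headers. Per the submitters' processing notes, bcl2fastq, Seurat and the build mm10 were also used, with settings not given in the sources used here. Another 7 hashtags that the labels do not list took 0.0843% and 0.0909% of hashtag UMIs and were left aside.

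The members and gene lists were chosen with earlier results of these data known. Hashtags were assigned by a mixture model at a posterior above 0.95 (the stricter calls needed 0.99, with the best tag 2 robust SDs ahead of the next). No doublet caller was run, and droplets carrying tags from several samples were left out of tissue shares and, as an alternative, of the gene comparisons. Counts were summed per class and library, or per hashed sample with at least 10 members, and the members summed to 871095 UMIs in library 1 and 531160 in library 2, against 6675800 and 8279859 in effector cells. Tests used edgeR 4.0.16 in R 4.3.3 (TMM, filterByExpr with a minimum count of 10, quasi-likelihood tests, Benjamini-Hochberg adjustment), with the library or experiment as a term. DESeq2 1.42.0 was an alternative. Shares carry exact (Clopper-Pearson) 95% intervals, for counting error only. Thinning drew 2000 UMIs per cell without replacement and left out shallower cells.

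Libraries pair the classes, since both classes of a library come from the same run and hashed samples, and the library term is that pairing. In simulated counts for the comparison with effector cells (10622 genes), 58% of genes changed by 1 log2 unit and 100% of those changed by 2 were recovered, with 5 false calls among 163. For the comparison among Egr2 cells (6756 genes) they were 52% and 96%, with 5 false calls among 153. The simulation gave every gene the same fixed spread and the same expected level in both libraries, and changed only genes of higher level. It held no transcripts concentrated in single cells, so its false calls do not give the false calls of the real counts.

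Genes to name were drawn, in each direction, from the 12 called with the largest fold change. These had the same direction and at least 20 CPM in the higher class in both libraries. Up to 4 per list with the largest change were added, and the genes of the rule and its markers. Not all were given above. Against effector cells, those left out include Cd81 (log2 fold change 2.36 ± 0.24), Hivep3 (2.03 ± 0.26) and Plek, which were higher. Ttc39c (-1.29 ± 0.28), Tmem176b (-1.11 ± 0.29) and Gzmb, which were lower, were also left out. Those with values here were called in each of the 3 exclusions. Among Egr2 cells, Ccdc136, Klrb1f and Pdlim4 were left out. Other list members were named after their values were seen.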

Additional observations from a re-analysis of the deposited data

Results flagged for a closer look

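Among the 4 VAT samples, replicate 1 had a share of Egr2 cytokine cells of 3.505% of T cells, far above the other VAT samples, with a gap of 0.892 of the whole range. Over the 7 groups of 4 hashed samples checked in this way, chance alone marks about 1 in 20. BAT minus spleen was -0.1622 percentage points in experiment 1 and 0.05539 in experiment 2, opposite in sign. This difference between experiments was not tested, and each of those shares rests on 0 or 1 cell per sample.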

How the results depend on the processing

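Against effector cells, 228 genes were called. DESeq2 called 35, the fit with no replicate block (no library term) 76, thinned cells 41, members and effector cells without Klrb1c or Zbtb16 93, cells without markers of other types 120, the hashed-sample block 21 and members with Cxcr6 only 84. The other 6 alternatives stayed within 1.5 times. Against the other Egr2 cells, 373 were called. DESeq2 called 22, the fit with no replicate block 0 (452 at an unadjusted edgeR p under 0.05), thinned cells 161, cells without hashtags of more than 1 sample 103, cells without Klrb1c or Zbtb16 196, members with at least 3 cytokine genes 174, and the block over 2 hashed samples 16. For SAT against VAT, 69 genes were called with no filter on low counts and 43 with stricter hashtag calls. Leaving out 1 hashed sample gave 0 to 2, 1 without SAT replicate 1 and 2 without VAT replicate 3, Ccl4 and Xcl1, both of the rule. The cause of these changes was not tested.

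Among the genes checked one by one, log2 fold changes that turned sign were, with members that had Cxcr6, H2-Ab1 (-0.69) and Lyz2 (-0.67), and against effector cells with at least 2 cytokine genes Klf2 (0.0445) and S1pr1 (0.24). Among all genes called against effector cells, H1f5 (-3.71), Hist1h2ap (-4.52) and Pclaf (-2.25) were called lower among cells of 4000 to 12000 UMIs, and Cd74 (-1.97), H2-Aa (-1.64) and H2-Eb1 (-1.68) with members that had Cxcr6. Among Egr2 cells Lyz2 (-5.27) was called lower with at least 3 cytokine genes. Sign changes without a call there were Cxcr3 (-0.17) and Lef1 (0.00955) in the hashed-sample block and Egr3 (-0.0175) in thinned cells. Nr4a1 turned in thinned cells (-0.0853), in cells of 4000 to 12000 UMIs (-0.0601) and without replicate 1 (-0.20, against 0.97 without replicate 2). Tnfrsf9 turned without cells with Klrb1c or Zbtb16 (-0.19) and without replicate 1 (-0.16, against 1.36 without replicate 2).

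BAT minus spleen among T cells turned in thinned cells (0.0152 points) and with at least 3 cytokine genes (0.0592). Among Cxcr6 cells, thinning turned SAT minus VAT (-0.843), SAT minus spleen (-2.63) and VAT minus spleen (-2.19), against 1 spleen sample. Leaving out cells with Klrb1c or Zbtb16 turned SAT minus spleen (-1.41) and VAT minus spleen (-0.794), also against 1 spleen sample, and BAT minus spleen was 0 with at least 3 cytokine genes. Thinning left few Cxcr6 cells in BAT and spleen samples. The small number of members, with 1 UMI of Egr2 in 111 of 156, limits these comparisons. The alternatives with Cxcr6 members only and with cytokine-positive effector cells were chosen after seeing the data.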
